A study of Mus musculus with 7 samples.

Results

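Type I interferon-stimulated genes were described in bulk RNA-seq of sorted mouse spleen cells. The set holds 34 named genes of the 54532 in the deposited table, chosen by gene name. Each name matched 1 row, all 34 lie on autosomes, and all 34 averaged at least 1 FPKM over the 7 libraries. Oas1g and Ifi44 were under 1 FPKM on average in periodontitis and entered the test through their level in health. There were 3 libraries from mice with periodontitis, named periodontitis 2 to 4 after their library names, and 4 from healthy mice, named health 1 to 4. Periodontitis had been set off by silk ligatures around the lower first molars on both sides, and the healthy mice had no ligature. Mice of both groups were IL-17GFP/+ reporter animals (genotype IL-17GFP+ in the labels), in which cells that use the IL-17 locus carry green fluorescent protein. The cells were sorted from spleen by GFP and are labelled as Th17 cells, T helper cells that make IL-17. The labels state neither age, nor the time after ligature, nor whether each library came from a mouse of its own. The p-values therefore describe only how much these libraries spread, which may be technical.

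Type I interferons are cytokines made by cells that sense viral or misplaced nucleic acid. They bind a receptor of the chains Ifnar1 and Ifnar2, whose kinases Jak1 and Tyk2 phosphorylate Stat2. It joins Irf9 in a complex that binds the interferon-stimulated response element in the promoters of target genes. The products block viral replication at several steps: OAS enzymes switch on RNA decay, IFIT proteins bind foreign RNA, Mx proteins trap viral capsids, and Isg15 is attached to other proteins. Usp18 removes Isg15 and damps the receptor, while Irf7 amplifies interferon production. Macrophages, dendritic cells and lymphocytes of the spleen express these genes at different base levels.

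The letters of the response element were searched in the promoters, since binding there is what the set shares by name. The search took GAAA, any 2 bases and GAAA again, on both strands (TTTC, any 2 bases and TTTC on the other), with overlapping matches counted, in windows of 250 bases before and 50 bases from the annotated start. Sequences came from RefSeq on build GRCm38.p6, which shares its coordinates with mm10. They were found for 24 of the 34 genes. There was no entry for Oas2, Mx1, Mx2, Usp18, Dhx58, Zbp1, Parp9, Parp14, Ifi27l2a and Rtp4. A match occurred in 13 of the 24 genes (54.2%), against 3.99% of 27025 genes in the promoter table and 4.18% of 8899 genes that were tested here and have a promoter. Of the 7 genes with a promoter that passed the test below, 4 held a match, and of the other 17 genes 9 did. The difference between these shares was not tested, and Oas2 and Rtp4, which also passed, had no promoter entry. Isg20, Irf7, Oasl1, Oasl2, Ifit2, Irf9, Cmpk2, Dtx3l, Xaf1, Ifi35 and Ifi44 had no match in these windows, which says only that these letters are not there. A match is a description of the letters and not of binding. The stretches shown are all those with a match that lies wholly before the start, in genes with and without a difference. Capitals mark the matches, and each line reads 5′ to 3′ on the gene's own strand.
Ifit3: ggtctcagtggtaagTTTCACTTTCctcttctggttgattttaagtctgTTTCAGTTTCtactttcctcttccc
Ifit3b: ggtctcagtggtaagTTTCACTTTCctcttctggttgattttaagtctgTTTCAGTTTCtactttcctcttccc
Ifit1: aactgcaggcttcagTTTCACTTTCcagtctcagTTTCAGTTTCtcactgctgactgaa
Oas1g: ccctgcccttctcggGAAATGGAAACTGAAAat
Oas1a: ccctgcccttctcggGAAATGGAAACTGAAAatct
Oas3: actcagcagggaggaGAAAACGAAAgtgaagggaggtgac
Trim30a: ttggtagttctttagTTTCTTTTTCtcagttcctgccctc
Isg15: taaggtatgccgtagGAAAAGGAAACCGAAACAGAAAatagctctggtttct
Rsad2: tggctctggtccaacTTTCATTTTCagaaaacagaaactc

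The Ifit3 stretch lies at chr19:34583358-34583431 and the Ifit3b stretch at chr19:34607754-34607827, both on the plus strand. Their letters are the same over 74 bases, with the matches 156 and 122 bases before the start of Ifit3 and 188 and 154 bases before that of Ifit3b. Ifit1 carries the same pair of matches closer together, at chr19:34640770-34640828 on the plus strand. The Oas1g (chr5:120887614-120887646) and Oas1a (chr5:120907526-120907560) stretches, on the minus strand, share their overlapping pair of matches, 18 and 20 bases before the start. Oas3 (chr5:120777710-120777749), Trim30a (chr7:104465205-104465244), Isg15 (chr4:156200860-156200911) and Rsad2 (chr12:26456548-26456587), all on the minus strand, held 1, 1, 3 and 1 matches. As given below, Ifit3, Oas1g and Trim30a were lower in periodontitis, and Ifit3b, Ifit1, Oas1a, Oas3, Isg15 and Rsad2 did not pass.

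The groups differed in more than their interferon genes. All 7 listed Th17 genes and all 9 listed T cell genes were higher in periodontitis, with summed levels of 392.2 to 639 FPKM in periodontitis against 13.9 to 20.9 FPKM in health for Th17 genes, and 1711 to 4145 FPKM against 255 to 589 FPKM for T cell genes. All 14 listed red pulp macrophage genes were lower, at 417 to 950 FPKM in periodontitis and 5425 to 15053 FPKM in health. None of these genes was at 0 in every library. The labelled cell type was thus weakly marked in health, where Il17a was 0 to 3.76 FPKM. Neutrophil genes summed to 5979 to 24460 FPKM in periodontitis and 16746 to 27027 FPKM in health, with 5 of 12 lower. Conventional dendritic cell genes summed to 42.9 to 51.8 FPKM in periodontitis and 278 to 698 FPKM in health. Most of the health sum was Sirpa alone, at 220 to 639 FPKM. Of 9 tested, Clec9a, Itgax, Batf3 and Sirpa were lower, while Flt3, Xcr1, Cd209a, Clec10a and Clec4a4 did not pass. Erythroid genes summed to 5467 to 17736 FPKM in periodontitis and 2345 to 4160.5 FPKM in health, with 2 of 8 higher. Of the plasmacytoid dendritic cell genes, a cell type known for making interferon, 1 of 8 tested was higher and 2 were lower, and Siglech, which defines these cells, did not pass. The X-linked transcript Xist was 0.135 to 1.35 FPKM in periodontitis and 52.1 to 72.5 FPKM in health, while Ddx3y on the Y chromosome was 9.22 to 16.9 FPKM in periodontitis and 0 in health. The groups thus differ in sex, and its effect and that of periodontitis cannot be told apart. Recovered reads totalled 13513806 to 16717942 in periodontitis libraries and 14161438 to 17891393 in health libraries. In bulk RNA, fewer cells of a type and less RNA per cell cannot be told apart, and the part of these markers in the results below was not tested.

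The interferon-stimulated genes leaned lower in periodontitis, with a negative difference for 27 genes and a positive one for 7, though most did not pass. Of the 34 genes, 8 were lower in periodontitis, 1 was higher and 25 did not pass (two-sided limma test of log2(FPKM + 1), with p-values adjusted by Benjamini and Hochberg over all 12998 genes tested and a threshold of 0.05). Oas2, Oas1g, Ifit3, Ifih1, Rtp4, Trim30a, Oasl2 and Ifit2 were lower, and the exonuclease gene Isg20 was higher. Among the 25 that did not pass, 19 had a negative difference and 6 a positive one. Of all genes tested, 10.2% were lower and 5.63% were higher, against 23.5% and 2.94% of the 34. The median difference of the 34 genes was -0.76 on the log2(FPKM + 1) scale, and that of all genes tested was -0.06. Values of 16 genes were lower in every periodontitis library than in any health library, which held for 17.2% of all genes tested. For 2 genes, Isg20 and Zbp1, they were higher in every periodontitis library, which held for 12.6% of all genes. Just inside the threshold was Ifit2 (adjusted p = 0.0480) and just outside it Eif2ak2 (adjusted p = 0.0524). FPKM values are reads relative to gene length and to the library's total, and differences on the log2(FPKM + 1) scale understate the change of low genes.

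Scaling of the libraries moved the count of lower genes. With each library rescaled to the same FPKM total, 19 of the 34 genes were lower and 1 was higher, beside 20.5% of all genes tested that were lower in that setting. The share of higher genes among all calls was 13.3% in place of 35.7%. That scaling moved the median of all genes by -0.44, leaving out features under 200 bases moved it by -0.15, and quantile normalization by 0.12. Relative to the median of all genes, the median of the 34 genes stood at -0.69, and between -0.53 and -0.87 over all 16 alternative settings. The call of Isg20 was lost without health 1, 2 or 3 (adjusted p = 0.0647 at most over the settings without a replicate block, and 0.0122 at least).

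**Figure D1:**
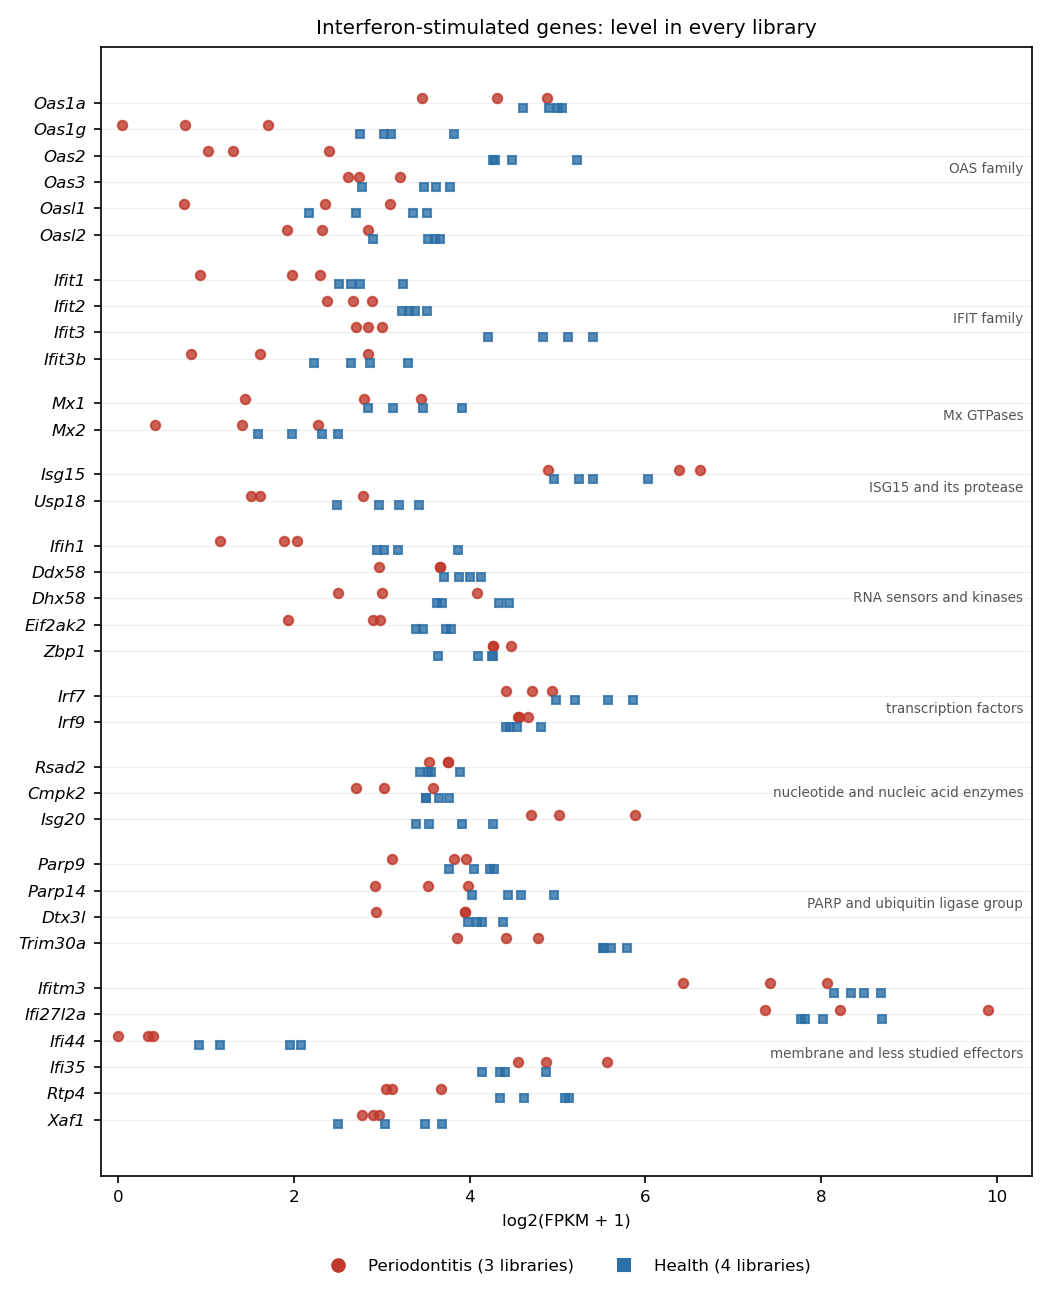
Level of each of the 34 genes in every library, in log2(FPKM + 1), with periodontitis libraries as circles above health libraries as squares, grouped by role. Oas2, Oas1g, Ifit3 and Rtp4 show a gap between the groups, and Irf9 and Rsad2 show none.

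**Figure D2:**
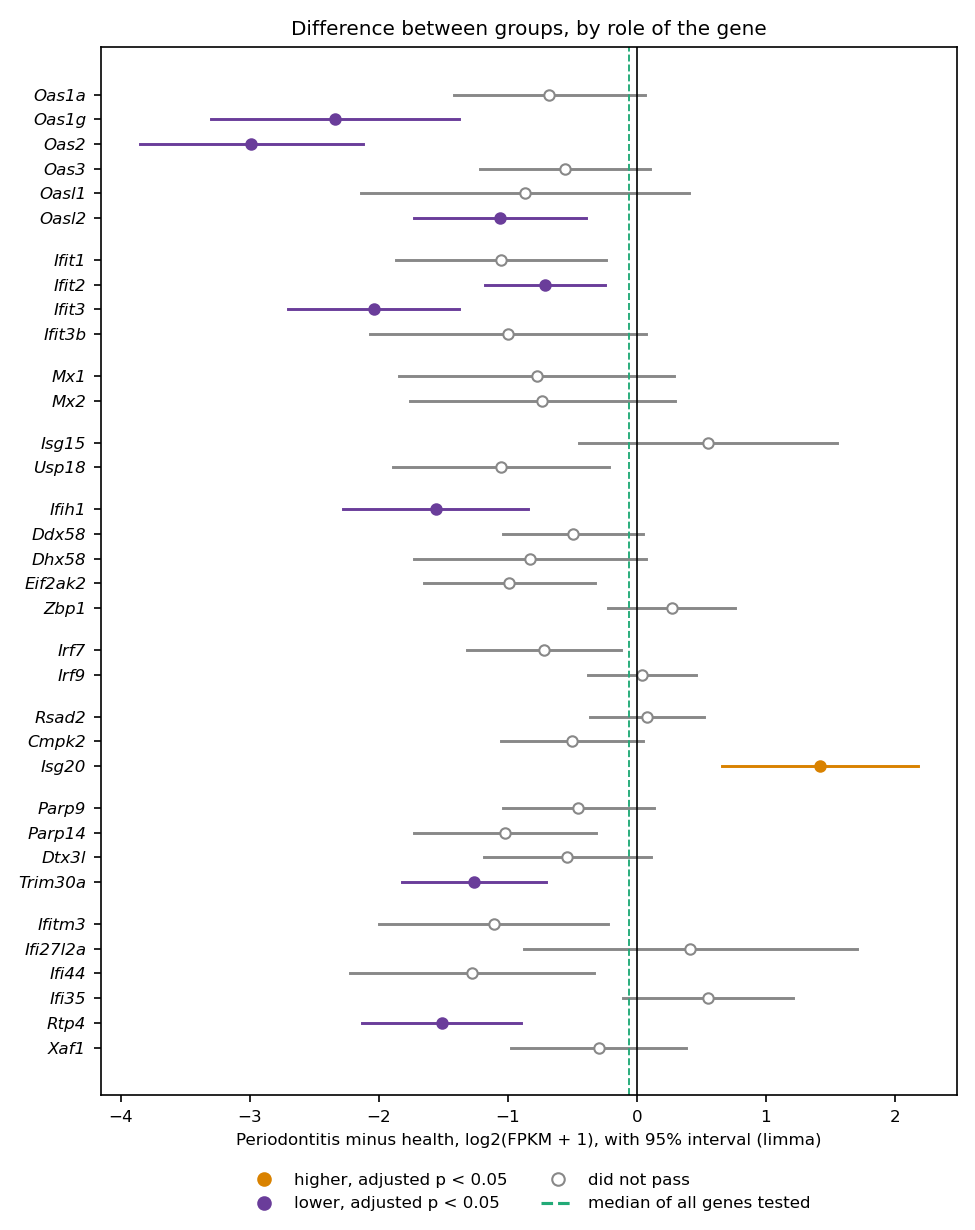
Difference between periodontitis and health for each gene on the log2(FPKM + 1) scale, with the 95% interval of the limma fit. Filled points passed an adjusted p of 0.05, with 8 genes lower and 1 higher, and the dashed line is the median of all genes tested at -0.06.

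The OAS family makes short 2′-5′ linked adenylate chains on meeting double-stranded RNA, which activate the nuclease RNase L. Of its 6 members 3 were lower and none was higher. Oas2 had 1.03, 4.28 and 1.47 FPKM in periodontitis 2, 3 and 4, against 21.3, 18.6, 36.4 and 18.3 FPKM in health 1 to 4. The 3 periodontitis libraries lay well below the health libraries, with periodontitis 3 the highest of them. The mean was 2.26 ± 1.76 FPKM in periodontitis and 23.6 ± 8.63 FPKM in health (SD, n = 3 and 4), 10.5-fold lower in periodontitis, with a log2 difference of -2.99 (SE 0.38, 95% interval -3.85 to -2.13, limma adjusted p = 0.00163). Oas2 lies at chr5:120730333-120749853 (mm10, minus strand), and its 68, 320 and 93 reads in periodontitis and 1194 to 2571 reads in health make counting error small beside the spread.

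Oas1g had 2.24, 0.686 and 0.0301 FPKM in periodontitis 2, 3 and 4, against 7.11, 7.61, 13.1 and 5.71 FPKM in health 1 to 4. The value in periodontitis 4 is 1 read, so the spread among periodontitis libraries is wide while the groups do not overlap. The log2 difference was -2.34 (SE 0.42, limma adjusted p = 0.00715). Oas1a, its neighbour and near copy, had 18.8, 10.003 and 28.3 FPKM in periodontitis 2, 3 and 4, against 32.2, 28.9, 31.1 and 23.4 FPKM in health 1 to 4. Periodontitis 4 reached into the health range, and the difference did not pass (log2 value -0.68, 95% interval -1.42 to 0.06, adjusted p = 0.199). Of all 50-base windows in the annotated transcripts, 57.6% of those of Oas1a and 45.2% of those of Oas1g occur in both genes, so reads may be split between them and each level is uncertain. With that limit, the ratio of Oas1g to Oas1a was 0.119, 0.0686 and 0.00106 in periodontitis 2, 3 and 4, against 0.221, 0.264, 0.421 and 0.244 in health 1 to 4, without overlap.

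Oas3 lies beside Oas2 on the same strand. It had 5.68, 5.10 and 8.25 FPKM in periodontitis 2, 3 and 4, against 5.83, 12.7, 11.3 and 10.1 FPKM in health 1 to 4. Health 1 lay within the periodontitis range, and the difference did not pass (log2 value -0.56, adjusted p = 0.233). Oas2 and Oas3 share no 50-base window. The ratio of Oas2 to Oas3 within a library is not moved by a common factor on that library, though quantile normalization can move it. This ratio was 0.181, 0.839 and 0.179 in periodontitis 2, 3 and 4, against 3.65, 1.47, 3.24 and 1.80 in health 1 to 4. Oas2 was thus the lower of the pair in each periodontitis library and the higher in each health library. This ratio rests on the same values as the levels above and was not tested.

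The OAS-like genes Oasl1 and Oasl2, of which mouse Oasl1 makes no adenylate chains, lie next to each other elsewhere on chromosome 5. Oasl2 had 3.99, 2.78 and 6.15 FPKM in periodontitis 2, 3 and 4, against 6.45, 11.7, 11.2 and 10.5 FPKM in health 1 to 4. The groups did not overlap by a small margin, between periodontitis 4 and health 1. Its log2 difference was -1.06 (SE 0.29, limma adjusted p = 0.0411), a call lost without periodontitis 2 or 3 or health 2, 3 or 4, without the filter and with quantile normalization (adjusted p from 0.00764 to 0.115 over the settings without a replicate block). Oasl1 had 4.10, 0.684 and 7.52 FPKM in periodontitis 2, 3 and 4, against 3.49, 5.51, 9.19 and 10.37 FPKM in health 1 to 4. The periodontitis values spread 10.99-fold and covered most of the health range, and the difference did not pass (adjusted p = 0.329).

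IFIT proteins bind RNA with viral 5′ ends. In the cluster on chromosome 19, 2 of 4 members were lower. Ifit3 (chr19:34583531-34588731, plus strand) had 5.52, 6.17 and 7.03 FPKM in periodontitis 2, 3 and 4, against 41.3, 27.5, 33.7 and 17.4 FPKM in health 1 to 4. Periodontitis libraries were close to each other, and the lowest health library, health 4, was well above the highest of them. The mean was 6.24 ± 0.760 FPKM in periodontitis and 30.0 ± 10.1 FPKM in health, with a log2 difference of -2.04 (SE 0.29, limma adjusted p = 0.00268).

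Ifit2 had 4.18, 5.38 and 6.39 FPKM in periodontitis 2, 3 and 4, against 8.35, 10.41, 8.91 and 9.39 FPKM in health 1 to 4. The groups did not overlap, and the log2 difference was -0.71 (SE 0.20, limma adjusted p = 0.0480). This call held in 3 of 15 alternative settings without a replicate block, with adjusted p from 0.00865 to 0.143, and was lost without any library other than periodontitis 4. Ifit1, which binds RNA that lacks the cap methylation of the host, had 2.94, 3.92 and 0.903 FPKM in periodontitis 2, 3 and 4, against 5.74, 4.70, 8.43 and 5.29 FPKM in health 1 to 4. No value overlapped, yet the difference did not pass (log2 value -1.05, adjusted p = 0.0839).

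Ifit3b had 2.05, 0.773 and 6.17 FPKM in periodontitis 2, 3 and 4, against 8.80, 3.68, 6.31 and 5.28 FPKM in health 1 to 4, with periodontitis 4 inside the health range. Its difference did not pass (95% interval of the log2 value -2.07 to 0.07, adjusted p = 0.192). Of the 50-base windows of Ifit3, 51.2% also occur in Ifit3b, and 44.5% of those of Ifit3b in Ifit3, so their levels are uncertain in the same way as those of Oas1a and Oas1g. The ratio of Ifit3 to Ifit2 was 1.32, 1.15 and 1.10 in periodontitis 2, 3 and 4, against 4.95, 2.64, 3.78 and 1.86 in health 1 to 4. Ifit3 exceeded Ifit2 in every library, by less in periodontitis.

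**Figure D3:**
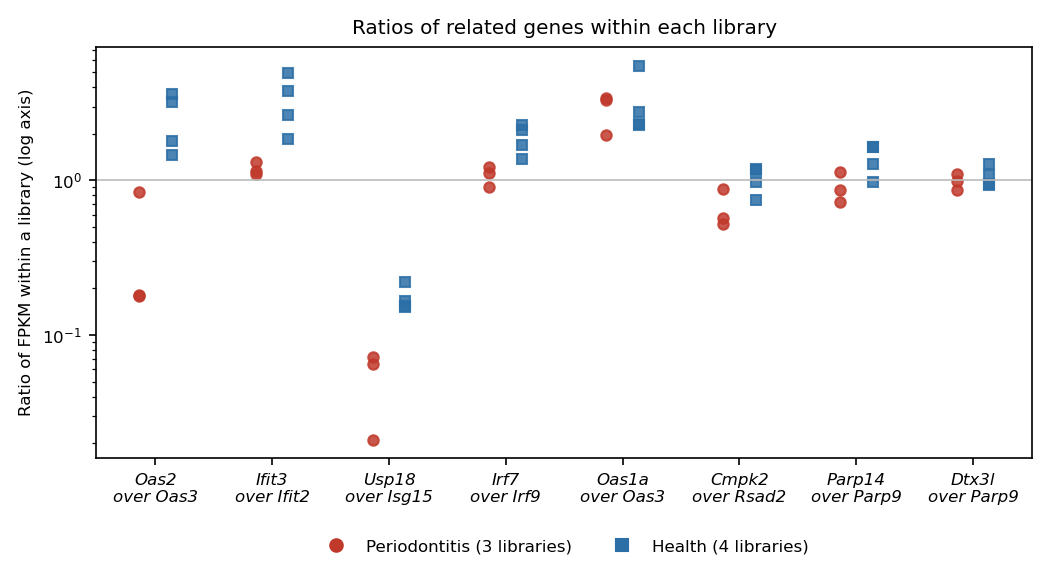
Ratio of the FPKM of related genes within each library on a log axis, with 3 periodontitis libraries left of 4 health libraries for each of 8 pairs. The groups do not overlap for Oas2 over Oas3, Ifit3 over Ifit2, Usp18 over Isg15 and Irf7 over Irf9, and they overlap for Oas1a over Oas3, Cmpk2 over Rsad2, Parp14 over Parp9 and Dtx3l over Parp9. Among the pairs taken but not drawn, the groups do not overlap for Oas1g over Oas1a. They overlap for Oasl2 over Oasl1, Ifit3 over Ifit3b, Ifit1 over Ifit2 and Mx1 over Mx2. The ratios rest on the same values as the levels and were not tested, and no background of other gene pairs was taken.

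The Mx genes encode dynamin-like GTPases that trap incoming viral particles, although Mx2 is annotated here as a polymorphic pseudogene. Neither Mx1 nor Mx2 passed. Mx1 had 1.71, 9.85 and 5.96 FPKM in periodontitis 2, 3 and 4, against 10.03, 6.17, 14.03 and 7.76 FPKM in health 1 to 4. Mx2 had 0.335, 1.65 and 3.82 FPKM in periodontitis 2, 3 and 4, against 3.98, 2.005, 4.68 and 2.94 FPKM in health 1 to 4. Periodontitis 2 was the lowest library for both genes, and the highest periodontitis library differed between them. The log2 values were -0.78 (adjusted p = 0.299) and -0.73 (adjusted p = 0.309).

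Isg15, the ubiquitin-like protein, had 82.2, 28.6 and 97.1 FPKM in periodontitis 2, 3 and 4, against 30.0, 36.8, 64.1 and 41.3 FPKM in health 1 to 4. Periodontitis 2 and 4 were above every health library and periodontitis 3 below them, and the difference did not pass (log2 value 0.55, 95% interval -0.45 to 1.56, adjusted p = 0.426). Usp18, the protease that removes Isg15 and blocks Ifnar2 signalling, had 5.89, 1.85 and 2.05 FPKM in periodontitis 2, 3 and 4, against 4.62, 8.15, 9.74 and 6.81 FPKM in health 1 to 4. Only periodontitis 2 reached the health range (log2 value -1.05, adjusted p = 0.0918). The ratio of Usp18 to Isg15 was 0.0716, 0.0648 and 0.0211 in periodontitis 2, 3 and 4, against 0.154, 0.221, 0.152 and 0.165 in health 1 to 4. Although neither gene passed on its own, their ratio did not overlap between the groups, a pair chosen after its values were seen and not tested.

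Of the 5 RNA sensors and kinases, Ifih1 was lower and 4 did not pass. Ifih1 encodes MDA5, a helicase that senses long double-stranded RNA (chr2:62595798-62646255, minus strand). It had 1.23, 3.10 and 2.69 FPKM in periodontitis 2, 3 and 4, against 13.5, 6.72, 8.06 and 7.10 FPKM in health 1 to 4. The groups were apart, with health 1 highest, and the log2 difference was -1.56 (SE 0.32, limma adjusted p = 0.0119). Ddx58 encodes the sister sensor RIG-I, which reads RNA ends. It had 6.84, 11.7 and 11.7 FPKM in periodontitis 2, 3 and 4, against 12.0, 13.7, 16.5 and 15.1 FPKM in health 1 to 4. Groups did not overlap, by a narrow margin to health 1, and the difference did not pass (log2 value -0.50, adjusted p = 0.200).

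Dhx58, which encodes LGP2, a regulator of both sensors, had 4.65, 7.04 and 15.9 FPKM in periodontitis 2, 3 and 4, against 20.7, 11.3, 19.2 and 11.9 FPKM in health 1 to 4 (log2 value -0.83, adjusted p = 0.199). Eif2ak2, the kinase PKR that halts translation on double-stranded RNA, had 2.82, 6.48 and 6.90 FPKM in periodontitis 2, 3 and 4, against 12.8, 10.02, 9.48 and 12.3 FPKM in health 1 to 4. Its values did not overlap, and its adjusted p was just above the threshold (log2 value -0.99, adjusted p = 0.0524, from 0.0152 to 0.129 over the settings without a replicate block). Zbp1, a sensor of left-handed nucleic acid that triggers cell death, had 21.1, 18.2 and 18.2 FPKM in periodontitis 2, 3 and 4, against 11.4, 16.1, 18.1 and 18.2 FPKM in health 1 to 4. The lowest periodontitis value exceeded the highest health value only beyond the third digit, and the difference did not pass (log2 value 0.27, adjusted p = 0.427) and was -0.18 with libraries rescaled to the same total.

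The transcription factor genes stood apart from each other. Irf9, the DNA-binding subunit of the complex with Stat2, had 24.4, 22.4 and 22.6 FPKM in periodontitis 2, 3 and 4, against 20.3, 21.0, 27.0 and 22.1 FPKM in health 1 to 4. All 3 periodontitis libraries lay inside the health range, and the 95% interval of the difference ran from -0.38 to 0.46 on the log2 scale (log2 value 0.04, adjusted p = 0.906). The sign of that value turned under several settings. Irf7 had 29.7, 20.2 and 25.1 FPKM in periodontitis 2, 3 and 4, against 46.5, 35.6, 57.0 and 30.6 FPKM in health 1 to 4. Irf7 did not overlap between the groups but did not pass (log2 value -0.72, adjusted p = 0.104). The ratio of Irf7 to Irf9 was 1.22, 0.901 and 1.11 in periodontitis 2, 3 and 4, against 2.29, 1.69, 2.11 and 1.38 in health 1 to 4, again without overlap.

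Among the nucleotide and nucleic acid enzymes Isg20 was higher. Isg20 encodes an exonuclease that degrades single-stranded RNA (chr7:78913424-78920396, plus strand). It had 57.9, 24.8 and 31.4 FPKM in periodontitis 2, 3 and 4, against 10.6, 9.48, 14.001 and 18.2 FPKM in health 1 to 4. Each periodontitis library lay above all health libraries, periodontitis 2 by the most. The mean was 38.1 ± 17.5 FPKM in periodontitis and 13.1 ± 3.92 FPKM in health, 2.91-fold higher, with a log2 difference of 1.42 (SE 0.33, limma adjusted p = 0.0220). Listed plasma cell genes summed to 1609, 716 and 2419 FPKM in periodontitis 2, 3 and 4, against 415 to 682 FPKM in health. Most of the periodontitis sums was Jchain, which did not pass, and 2 of 8 genes were higher. Listed T cell genes, 9 of 9 higher, summed to 4145, 2200 and 1711 FPKM in periodontitis 2, 3 and 4. The part of either cell type in the level of Isg20 was not tested.

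Rsad2 encodes viperin, which makes a chain-terminating nucleotide from CTP. It had 12.4, 10.6 and 12.4 FPKM in periodontitis 2, 3 and 4, against 10.7, 9.80, 10.5 and 13.8 FPKM in health 1 to 4. Its values interleaved, with a 95% interval from -0.37 to 0.52 (log2 value 0.08, adjusted p = 0.821, and log2 value -0.37 with libraries rescaled to the same total). Cmpk2, the neighbouring gene for a kinase that supplies the substrate, had 7.11, 5.53 and 10.96 FPKM in periodontitis 2, 3 and 4, against 12.5, 11.5, 10.34 and 10.36 FPKM in health 1 to 4. Periodontitis 4 alone was in the health range, and the difference did not pass (log2 value -0.50, adjusted p = 0.201).

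Trim30a was the lower member among the ligase and PARP genes. It encodes a tripartite motif protein that restrains Toll-like receptor signalling in mice (chr7:104409025-104465193, minus strand). Its level was 13.5, 26.4 and 20.3 FPKM in periodontitis 2, 3 and 4, against 47.8, 45.1, 54.2 and 44.7 FPKM in health 1 to 4. The health libraries were within 1.21-fold of each other and well above periodontitis, with a log2 difference of -1.26 (SE 0.25, limma adjusted p = 0.0101). Parp9 and Dtx3l, which form a complex that ubiquitinates histones and viral proteases, lie head to head on chromosome 16 and share 458 exon bases on opposite strands. Parp9 had 7.64, 13.1 and 14.5 FPKM in periodontitis 2, 3 and 4, against 18.3, 12.6, 17.8 and 15.6 FPKM in health 1 to 4.

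Dtx3l had 6.62, 14.5 and 14.4 FPKM in periodontitis 2, 3 and 4, against 19.8, 16.0, 16.6 and 14.7 FPKM in health 1 to 4. Parp9 overlapped between the groups and Dtx3l did not, by a narrow margin. Neither passed (adjusted p = 0.273 for Parp9 and 0.241 for Dtx3l), and their ratio stayed between 0.866 and 1.27 in all 7 libraries. The sources do not state whether counting used strand, so reads over their shared bases cannot be told apart. Parp14, an ADP-ribosyl transferase in the same region, had 6.59, 14.8 and 10.5 FPKM in periodontitis 2, 3 and 4, against 30.0, 20.7, 22.9 and 15.2 FPKM in health 1 to 4. Periodontitis 3 came close to health 4, and the difference did not pass (log2 value -1.02, adjusted p = 0.0590).

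Of the membrane and less studied effectors, Rtp4 was lower and 5 did not pass. Rtp4, a receptor transporter protein, had 11.7, 7.29 and 7.64 FPKM in periodontitis 2, 3 and 4, against 32.8, 23.6, 33.9 and 19.3 FPKM in health 1 to 4. The groups were apart, with a log2 difference of -1.51 (SE 0.27, limma adjusted p = 0.00674). Ifitm3, which stops viruses from fusing with endosomes, was among the most abundant of the set, with 267, 84.8 and 170 FPKM in periodontitis 2, 3 and 4, against 283, 358, 408 and 322 FPKM in health 1 to 4. Its values did not overlap, by the narrow gap between periodontitis 2 and health 1, and the difference did not pass (log2 value -1.11, adjusted p = 0.0920). Neutrophil genes summed to 24460, 7155 and 5979 FPKM in periodontitis 2, 3 and 4, and their part in the level of Ifitm3 was not tested.

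Ifi27l2a, a small gene strongly induced by interferon, had 954, 163 and 297 FPKM in periodontitis 2, 3 and 4, against 259, 224, 414 and 218 FPKM in health 1 to 4. Periodontitis 2 alone was above the health range, and the difference did not pass (log2 value 0.42, adjusted p = 0.656) and had the other sign without that library. Ifi44 had 0.318, 0.262 and 0 FPKM in periodontitis 2, 3 and 4, against 2.86, 0.882, 3.23 and 1.23 FPKM in health 1 to 4. The 0 in periodontitis 4 allows up to 0.0345 FPKM (3 reads, counting error only), and periodontitis 2 and 3 rest on 29 and 27 reads. The gene did not overlap between the groups and did not pass (log2 value -1.28, adjusted p = 0.0721).

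Ifi35, which forms a complex with Nmi, had 46.2, 28.1 and 22.5 FPKM in periodontitis 2, 3 and 4, against 19.3, 16.7, 28.3 and 20.2 FPKM in health 1 to 4 (log2 value 0.55, adjusted p = 0.237). An antisense gene, Gm11626, at 1.51 FPKM or less, covers 16.8% of its exon bases. Xaf1, which counters an inhibitor of apoptosis, had 6.82, 6.48 and 5.84 FPKM in periodontitis 2, 3 and 4, against 7.21, 10.2, 11.8 and 4.64 FPKM in health 1 to 4 (log2 value -0.29, adjusted p = 0.541). Both overlapped between the groups.

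The libraries of a group ranked differently from gene to gene. Among periodontitis libraries, periodontitis 2 was lowest for 13 of the 34 genes, periodontitis 3 for 15 and periodontitis 4 for 6. Periodontitis 2 was lowest for Mx1, Mx2, Ifih1, Ddx58, Dhx58, Eif2ak2 and the PARP group, and highest for Isg20, Ifi27l2a, Ifi35 and Ifitm3. In health, health 3 was highest for 17 genes, health 1 for 10, health 4 for 4 and health 2 for 3. Health 1, where the macrophage genes summed to 15053 FPKM against 5425 to 7843 FPKM in health 2 to 4, was the highest health library for Ifit3, Ifih1 and Parp14 and the lowest for Oas3, Oasl2 and Isg15. The median level of the 34 genes was 6.60, 7.16 and 9.36 FPKM in periodontitis 2, 3 and 4, against 12.7, 12.1, 15.3 and 14.3 FPKM in health 1 to 4.

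**Figure D4:**
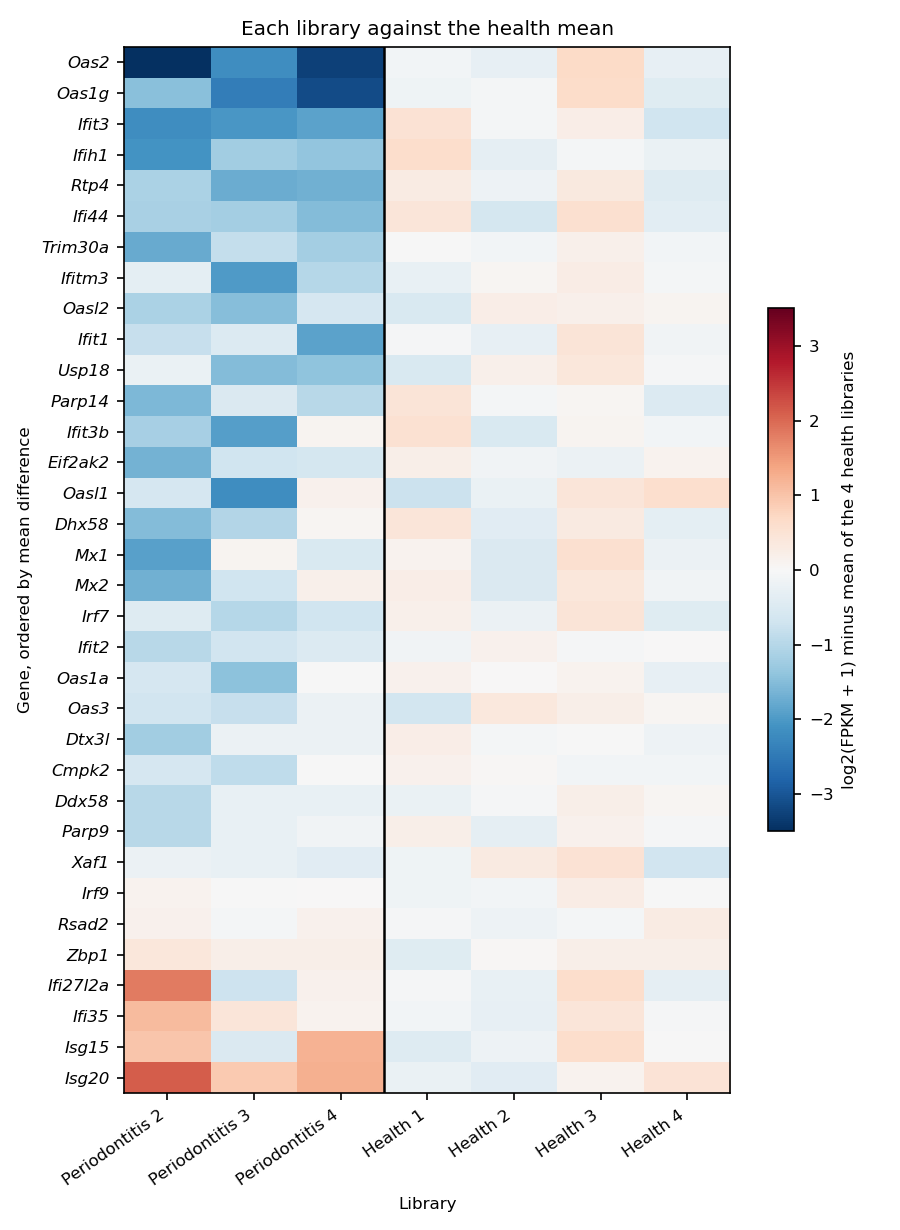
Level of each gene in each library on the log2(FPKM + 1) scale minus the mean of the 4 health libraries, with periodontitis libraries left of the line and genes ordered by their mean difference. The lowest genes, Oas2 to Rtp4, are low in all 3 periodontitis libraries, whereas genes such as Mx1, Oasl1 and Ifi27l2a differ among them.

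The pathway around these genes was followed through 5 further lists of 127 genes, of which 126 are in the table and 105 were tested. Of these, 9 were higher, 25 were lower and 71 did not pass, or 8.57% and 23.8% against the 5.63% and 10.2% of all genes. Their median difference was -0.31 on the log2(FPKM + 1) scale, beside -0.06 for all genes tested. The 18 type I interferon genes are listed at 0 reads in every library. By counting error alone a count of 0 allows 0.178 to 0.212 FPKM for a gene 1 kilobase long. Trex1, a DNA exonuclease gene used by many cell types, is also listed at 0 in all 7 libraries, so a 0 in the table need not be a lack of transcript. The Ifna genes are close copies of each other, and the sources do not say how reads that match several of them were counted.

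Of 12 receptor and signalling genes 1 was higher and 2 were lower. Ifnar1 is one receptor chain. It had 11.002, 19.3 and 19.7 FPKM in periodontitis 2, 3 and 4, against 20.3, 19.3, 20.8 and 15.3 FPKM in health 1 to 4, and did not pass (log2 value -0.21, adjusted p = 0.608). Ifnar2, the other chain, had 20.1, 14.7 and 27.2 FPKM in periodontitis 2, 3 and 4, against 62.9, 32.2, 43.5 and 34.3 FPKM in health 1 to 4, and missed the threshold by little (log2 value -1.02, adjusted p = 0.0527). Stat2, the partner of Irf9, was lower at 9.68 ± 2.93 FPKM in periodontitis and 24.6 ± 4.82 FPKM in health (log2 difference -1.28, limma adjusted p = 0.0116). Ptpn6, a phosphatase gene of blood cells, was lower at 104 ± 15.1 FPKM in periodontitis and 211 ± 24.5 FPKM in health (log2 difference -1.01, adjusted p = 0.0194). That call was lost without health 2 or 3 (adjusted p from 0.00181 to 0.0684 over the settings without a replicate block). It was also lost with a replicate block (limma adjusted p = 0.138). Socs1, a feedback inhibitor of the receptor kinases, was higher, at 24.2, 15.2 and 12.7 FPKM in periodontitis 2, 3 and 4, against 3.27, 7.88, 9.87 and 6.96 FPKM in health 1 to 4 (log2 difference 1.23, adjusted p = 0.0497). The call of Socs1 was lost in 11 of 15 alternative settings without a replicate block, with adjusted p from 0.0327 to 0.133.

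Of the interferon regulatory factors outside the 34 genes, 6 were tested. Irf8, a factor of macrophages, dendritic cells and B cells, was lower at 14.6 ± 2.30 FPKM in periodontitis and 65.7 ± 9.51 FPKM in health (log2 difference -2.09, limma adjusted p = 0.000728). Irf5, which acts below Toll-like receptors in myeloid cells, was lower at 23.7 ± 5.53 FPKM in periodontitis and 76.7 ± 9.93 FPKM in health (log2 difference -1.67, adjusted p = 0.00203). Irf4, a factor of activated T cells and plasma cells, was higher at 15.7, 23.0 and 24.3 FPKM in periodontitis 2, 3 and 4, against 7.004, 9.85, 9.80 and 14.6 FPKM in health 1 to 4 (log2 difference 0.98, adjusted p = 0.0433), a call lost in 9 of 15 alternative settings without a replicate block, with adjusted p from 0.0281 to 0.207. Of 19 tested genes of nucleic acid sensing, 9 were lower and 1 was higher. Tlr7, an endosomal receptor of single-stranded RNA, had 4.85, 4.31 and 1.80 FPKM in periodontitis 2, 3 and 4, against 51.7, 31.1, 31.2 and 24.1 FPKM in health 1 to 4 (log2 difference -2.95, adjusted p = 0.00114). The related endosomal receptors Tlr8, Tlr9 and Tlr3 had log2 differences of -3.97, -1.43 and -1.33 and were lower. Tlr8, at 0.475 FPKM on average in periodontitis and 24.1 FPKM in health, and Tlr3, at 0.827 FPKM in periodontitis and 3.51 FPKM in health, entered the test through their level in health. The call of Tlr3 was lost without health 1 or 4, without the filter and with quantile normalization (adjusted p from 0.00533 to 0.0590 over the settings without a replicate block). It was also lost with a replicate block (limma adjusted p = 0.117). Tlr7 and Tlr8 lie on the X chromosome, where sex differs between the groups. Unc93b1, the chaperone of these receptors, was lower at 75.01 ± 15.3 FPKM in periodontitis and 321 ± 85.6 FPKM in health. Ifi204, a DNA sensor of mouse macrophages, was lower at 1.95 ± 0.882 FPKM in periodontitis and 24.9 ± 9.41 FPKM in health. These lower levels stand beside the lower sums of macrophage and conventional dendritic cell genes given above, the latter mostly Sirpa in health. The part of these cell types was not tested. The exception was Tmem173, which encodes STING, at 51.3 ± 14.6 FPKM in periodontitis and 25.6 ± 3.69 FPKM in health (adjusted p = 0.0301), named after its values were seen. Its call was lost in 9 of 15 alternative settings without a replicate block, among them every one without a single library other than periodontitis 3, with adjusted p from 0.0219 to 0.130.

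Of 68 other interferon-stimulated genes tested, 6 were higher and 12 were lower. The 6 with the smallest p were 5 lower genes and 1 higher gene. Gm4951, Ifi207, Trim30d, Slfn5 and Trafd1 were lower, with log2 differences of -3.10, -3.58, -2.08, -1.47 and -1.21. Gm4951, at 0.127 FPKM on average in periodontitis and 9.09 FPKM in health, entered the test through health. Cd69, a surface marker of activated lymphocytes, was higher at 18.1 ± 3.96 FPKM in periodontitis and 3.95 ± 1.80 FPKM in health (log2 difference 2.01, adjusted p = 0.00492). Trim30d, a relative of Trim30a on the same chromosome, shares 6.39% of its 50-base windows with it. Oas1c, in the cluster of Oas1a and Oas1g, had 8.76 ± 0.184 FPKM in periodontitis and 2.97 ± 1.47 FPKM in health and was higher (adjusted p = 0.0158), named after its values were seen, a call lost with libraries rescaled to the same total (adjusted p = 0.0511, and from 0.00775 over the other settings without a replicate block). Oas1c shares no 50-base window with Oas1g, and its windows were not compared with those of Oas1a or Oas1b. The Oas1 cluster held genes called in both directions, with the limit on the level of Oas1g given above.

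**Figure D5:**
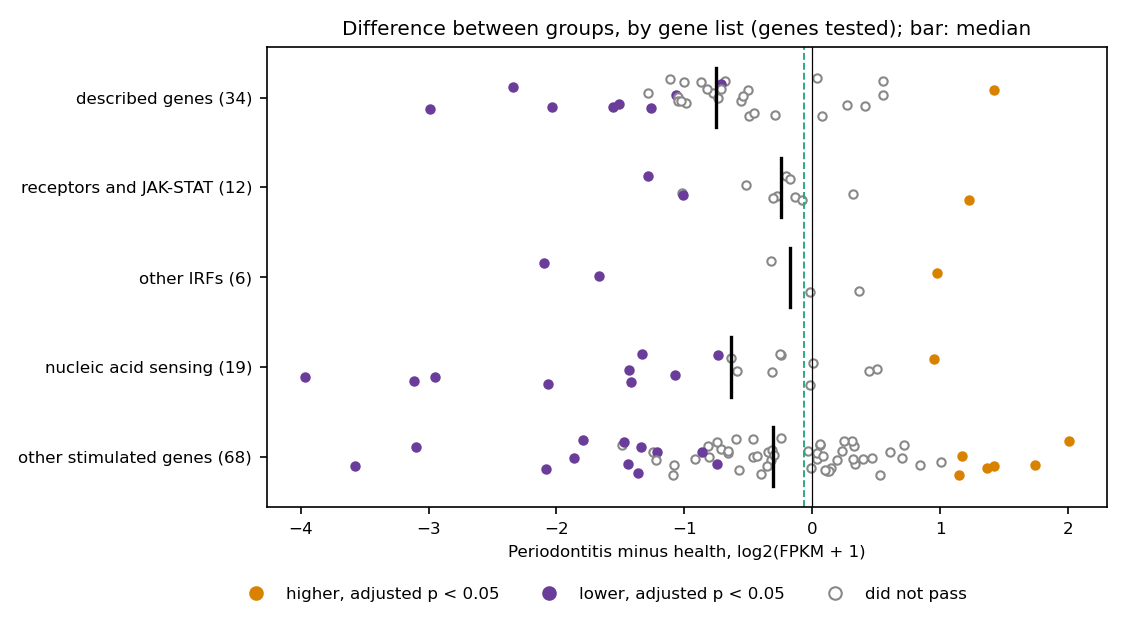
Difference between periodontitis and health on the log2(FPKM + 1) scale for the 34 described genes and the 4 further lists with tested genes, 1 point per gene, with the median of each list as a bar and that of all genes as a dashed line. The 34 genes have a median of -0.76, and genes past the threshold in both directions occur in every list.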

How the data were processed

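Bulk RNA-seq covered spleen cells sorted by GFP, with 3 periodontitis and 4 health libraries, grouped and numbered as in the descriptions that GEO holds. The authors deposited FPKM values per gene and library. The submitters' processing notes name mm10, HISAT2 2.0.5, featureCounts 1.5.0-p3 and DESeq2, with no role or settings; the sources used here do not give strand use or annotation release. For 100% of nonzero values, FPKM times gene length came within 0.001 read of a whole number of reads, which gave the depth. No libraries agreed within sampling noise (chi-square per degree of freedom of at least 32.8).

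Genes averaging 1 FPKM or more (12998) were tested on log2(FPKM + 1) in limma 3.58.1 under R 4.3.3, with a variance trend and Benjamini-Hochberg adjustment. Of entries with a repeated name, that with the highest mean was kept. Differences are periodontitis minus health. The fit was tested on simulated data. Members and lists were chosen with earlier results of these data known. All 34 genes are named, and of each further list up to 6 called genes by smallest p, with Ifnar1 and Ifnar2; Tmem173 and Oas1c were added after their values were seen. The main test used FPKM, the deposited unit, and the count tests edgeR and DESeq2 were not run. Voom with trimmed-mean scaling of the recovered reads was an alternative, beside another pseudocount, other filters and scalings, library weights, a replicate block and leaving out each library.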

Additional observations from a re-analysis of the deposited data

Results flagged for a closer look

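In the health group of 4 libraries, 1 library stood far from the other health libraries for 2 of the 56 genes examined. Oas2 was 36.4 FPKM in health 3, while health 1, 2 and 4 had 18.3 to 21.3 FPKM. Ptpn6 was 174 FPKM in health 4, while health 1 to 3 had 219 to 228 FPKM. Chance gives such a library in about 5% of groups. The 3 periodontitis libraries are too few for this check.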

How the results depend on the processing

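Of the 8 lower genes, Oas2, Oas1g, Ifit3, Ifih1, Trim30a and Rtp4 passed in all 15 alternative settings without a replicate block. Lower genes numbered 19 with libraries rescaled to the same total, where the median of the 34 genes was -1.30 beside -0.50 for all genes and 20.5% of all genes were lower, and 6 to 11 without single libraries. Isg20 was not called without the filter, with library weights, or without health 1, 2 or 3, so that higher genes numbered 0 to 1 without single libraries and 0 in the 2 other cases. With a replicate block 4 genes were lower, Oas2, Oas1g, Ifit3 and Trim30a, and 0 higher. Ifih1 and Rtp4 did not pass with the block (limma adjusted p = 0.0524 and 0.0501), nor did Oasl2 and Ifit2. Of the pathway genes 13 were lower and 1 higher with the block. These pathway counts were 25 and 9 with all libraries. Lower ones numbered 16 without the filter, 46 with libraries rescaled and 15 to 24 without single libraries. Higher ones numbered 3 without the filter, 1 rescaled, 4 without features under 200 bases, 3 with library weights and 2 to 6 without single libraries.

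The sign turned for 5 genes that had not passed. With libraries rescaled to the same total the log2 value was -0.18 for Zbp1, -0.42 for Irf9, -0.37 for Rsad2 and -0.053 for Ifi27l2a. Without features under 200 bases it was -0.15 for Irf9 and -0.10 for Rsad2. With library weights it was -0.013 for Irf9 and -0.11 for Ifi27l2a, with quantile normalization -0.028 for Ifi27l2a, and with the replicate block -0.0077 for Irf9. Without single libraries it ran from -0.0077 to 0.12 for Irf9 (negative without health 1), from -0.29 to 0.98 for Ifi27l2a (negative without periodontitis 2) and from -0.35 to 0.049 for Ifnar1 (positive without periodontitis 2). The cause was not tested. Deviations of same-numbered libraries from their group means correlated by -0.05, -0.02 and 0.04, and those of differently numbered ones by -0.097 to 0.12. Such deviations cancel within each group, so these values cannot show whether shared library numbers pair the groups. The count tests edgeR and DESeq2 were not run, as the deposited values are FPKM, and voom on recovered reads was run instead. Low read counts limit Oas1g, Ifi44 and Mx2 most, with 1, 0 and 18 reads in their lowest library. That library was periodontitis 4 for Oas1g and Ifi44, and it had reads in the fewest genes, 12226.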
